A study of Arabidopsis thaliana with 24 samples.

Results

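The comparison described here is that of Distal with Proximal cells of the PUB25 line of Arabidopsis thaliana, across genes. RNA of both cell populations was compared for the 16605 of 32619 gene rows whose mean level over the 3 zones of the line was at least 1 FPKM (fragments scaled by transcript length and library size). All groups were of the Col-0 ecotype, and the source material was protoplasted cells of the root meristem, that is, cells freed from their walls by enzymes. Cells of the line named PUB25 were separated by fluorescence-activated sorting on the intensity of their GFP into populations named Proximal, Medial and Distal, with 3 libraries each. The series holds 24 libraries of 3 such lines. The labels do not state which GFP intensity a population had, what drives the GFP, what the zone names are relative to, or the age or growth conditions of the plants, so the zone names are used here only as labels.

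For every gene and zone the authors deposited 1 FPKM value that pools the 3 libraries. No error or n can therefore be given for a level, and the spread between libraries is unknown. Where 3 levels of a gene are given, they follow the order Proximal, Medial, Distal. A difference below is that of log2(FPKM + 1), Distal minus Proximal, which understates the change of low genes. The words rose and fell are used only of genes with a q value (p adjusted by the authors in their own test) that lies under 0.05 in the authors' deposited table, and this holds for every rise or fall below. In sorted populations, fewer cells of a type and less RNA of a gene per cell cannot be told apart.

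The root meristem holds a small stem cell niche that is covered at the tip by the root cap, whose outer cells die and are shed, and above it files of dividing cells that later elongate and differentiate into hairs, endodermis, phloem and xylem. The columella, the central part of the cap, stores starch grains that sense gravity. Roots of the Brassicaceae also carry a chemical defence in which myrosinases, beta-glucosidases held apart from their substrates, cut glucosinolates into toxic products when tissue is damaged.

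The gene PUB25 (AT3G19380, chromosome 3, 6714392 to 6716099), a U-box ubiquitin ligase whose name the line carries, was listed at 9.15, 4.98 and 5.01 FPKM and fell between Proximal and Distal (q = 0.0011, from the authors' deposited table). The labelled tissue was checked against genes of green leaves, and 1 of 12 such markers, LHCB3, passed the minimum level, at 2.95, 1.11 and 2.46 FPKM. Depth per library is unknown. The summed FPKM of the genes compared, without the row AT2G01021, was 559120 in Proximal and 692641 in Distal cells, and small differences below are affected by that gap.

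In Distal cells 1571 genes (9.46% of those compared) stood at least 2-fold higher than in Proximal cells, and 1159 (6.98%) stood at least 2-fold lower. A difference of at least 4-fold was held by 565 genes (3.40%) upward and 283 (1.70%) downward, and one of at least 8-fold by 220 (1.32%) and 93 (0.560%). The authors' deposited table calls 3254 of the genes compared higher in Distal cells (19.6%) and 2859 lower (17.2%). Counts of list and family members below are to be read against these shares. Of the genes past 2-fold, 1355 upward and 982 downward also passed in the authors' deposited table, while 216 and 177 did not. The median difference over all genes compared was -0.01, with quartiles of -0.36 and 0.38. When both zones were scaled to equal sums of FPKM, a setting chosen after seeing the data, the median moved to -0.28 and the share of upward among the 2-fold differences from 57.5% to 39.4%. Small differences are therefore to be read against that shift. The genes nearest the 2-fold limit were the sugar pyrophosphorylase gene USP, just inside at 11.8 and 24.7 FPKM in Proximal and Distal cells, and the pectinesterase gene PE11, just outside at 35.2 and 71.5 FPKM. At the minimum level, NAC080 was just inside and EXL4 just outside.

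**Figure D1:**
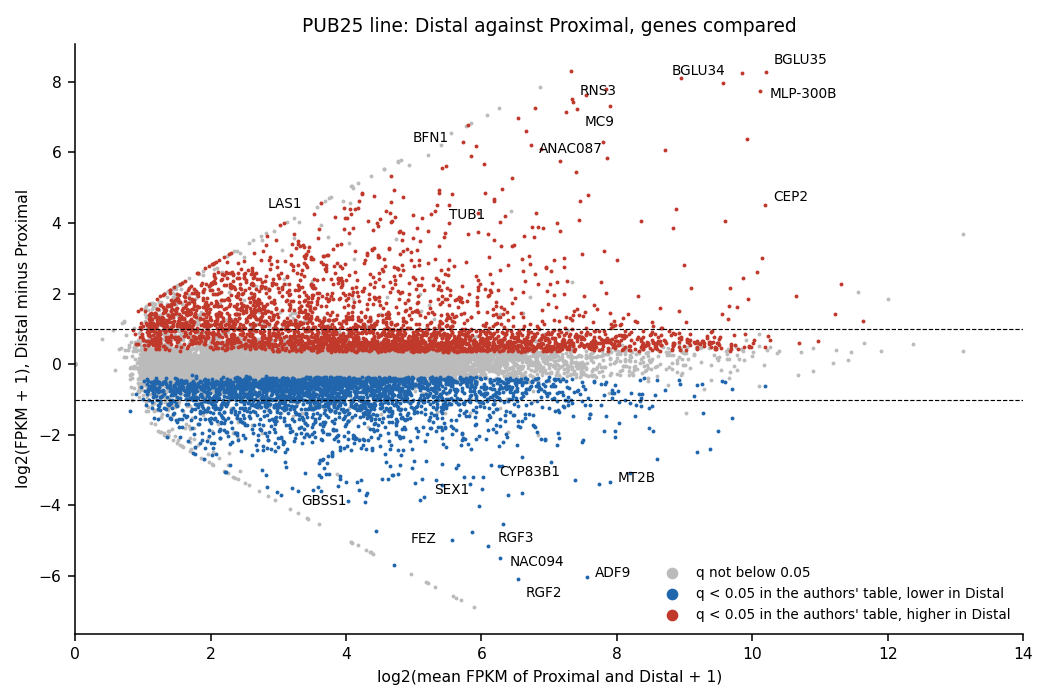
Difference of log2(FPKM + 1), Distal minus Proximal, against the log2 mean level of both zones for the genes compared in the PUB25 line; each point is 1 gene, red and blue mark q under 0.05 in the authors' deposited table, and dashed lines mark 2-fold (the row AT2G01021 lies beyond the right edge). Among the genes labelled in the plot the rises reach 8.28 for BGLU35, and the falls reach -6.10 for RGF2.

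Large rises outnumbered large falls. From under 5 FPKM in Proximal to at least 100 FPKM in Distal cells went 33 genes, of which 28 rose by the authors' deposited table. The reverse held for 7 genes, of which 5 fell by the authors' deposited table. These 5 were RGF2, RGF3, ADF9, NAC094 and a late embryogenesis abundant protein gene, AT3G53040, which went from 112 to 3.20 FPKM. From under 10 to at least 1000 FPKM went 4 genes, namely BGLU34, BGLU35, MLP-300B and the fatty acid desaturase family gene AT1G06090, which rose from 5.11 through 587 to 1512 FPKM. The locus names AT3G53040 and AT1G06090, and those of the lipid enzymes below, were chosen after their values were seen.

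Among single-gene rows with a symbol, the root myrosinases and a myrosinase-binding protein held the highest ranks of the rises. Among myrosinase and ER body genes, 10 of 21 members compared rose and 2 fell by the authors' deposited table, at a median difference of 0.46. These were 47.6% and 9.52%, against 19.6% and 17.2% of all genes compared, and the median was 0.25 with equal sums of FPKM. BGLU35 and BGLU34, also known as the root myrosinases TGG5 and TGG4, lie on chromosome 1 at 19087382 to 19090539 and 17491732 to 17494759 of the deposited TAIR10 loci. BGLU35 was at 6.53, 566 and 2338 FPKM. BGLU34 was at 4.99, 489.8 and 1829 FPKM. Both were low in Proximal cells and already high in Medial cells, with differences of 8.28 and 8.26 between Distal and Proximal. Their transcripts share 96.9% of 1748 aligned bases, so reads may have been split between them and the share of each is uncertain. The 250 bases before each gene's start are shown because both genes moved alike: 191 of 220 aligned bases were identical there (86.8%). They are read from the RefSeq annotation of TAIR10.1, at chr1:17491481-17491730 and chr1:19087134-19087383, both on the plus strand, with the letters TATAAA in capitals.
BGLU34: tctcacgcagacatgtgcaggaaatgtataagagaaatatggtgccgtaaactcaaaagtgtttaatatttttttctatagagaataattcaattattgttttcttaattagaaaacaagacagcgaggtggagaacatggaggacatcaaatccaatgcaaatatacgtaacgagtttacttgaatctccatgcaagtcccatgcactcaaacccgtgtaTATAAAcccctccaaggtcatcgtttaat
BGLU35: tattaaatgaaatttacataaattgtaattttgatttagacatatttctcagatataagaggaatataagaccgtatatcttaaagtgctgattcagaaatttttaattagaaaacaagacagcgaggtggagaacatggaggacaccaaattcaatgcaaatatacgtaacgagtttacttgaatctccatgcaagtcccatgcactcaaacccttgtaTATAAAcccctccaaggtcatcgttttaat
The match begins at position -29 in BGLU34 and at -30 in BGLU35, counted back from -1 just before the start of the gene. TATAAA on either strand occurs in 47.3% of the 27443 protein-coding windows of this length, and a match is a description of letters, not of a working site.

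MLP-300B, a myrosinase-binding protein gene on chromosome 3, followed the pair from 9.23 through 753 to 2202 FPKM. NSP5, a nitrile specifier gene that steers glucosinolate breakdown away from isothiocyanates, rose from 295 through 1118 to 1326 FPKM. GLL23, a GDSL-type lipase-like gene of the myrosinase complex (AT1G54010), rose from 302 to 1838 FPKM but was highest in Medial cells, at 2403 FPKM. JAL30, a jacalin-related lectin also called PBP1, rose from 402 to 1089 FPKM, again with its highest level, 1336 FPKM, in Medial cells. The classical beta-glucosidases of ER bodies did not follow them. BGLU23, known as PYK10, was listed at 780.4, 1020.3 and 702 FPKM (q = 0.648, from the authors' deposited table). BGLU21 was listed at 506, 796 and 436 FPKM, and its near copy BGLU22 fell from 725 to 491 FPKM. NAI1, a bHLH regulator of ER bodies, fell from 41.5 to 19.7 FPKM.

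Genes for making glucosinolates went the other way. By the authors' deposited table, 14 of 16 members compared fell and 0 rose, against the 17.2% of all genes that fell, and the median difference was -1.24. CYP83B1, which channels tryptophan-derived aldoximes into indole glucosinolates, fell from 123 through 39.98 to 16.3 FPKM. CYP79B3, the step before it, fell from 6.80 to 1.73 FPKM. The sulfotransferase gene SOT16 and the lyase gene SUR1, later steps, fell by 1.17 and 1.06 (log2). MYB34 and MYB51, regulators of the indole branch, fell from 22.8 to 7.90 FPKM and from 5.63 to 0.401 FPKM. CYP81F4, which modifies the indole ring, fell from 83.0 to 32.9 FPKM. NPF2.11, a glucosinolate importer known as GTR2, fell from 58.2 to 15.9 FPKM. The 2 members that did not pass, CYP81F1 and GGP1, had differences of -0.44 and -0.29. The regulators of the methionine-derived branch, MYB28, MYB29 and MYB76, were not among the genes compared.

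**Figure D2:**
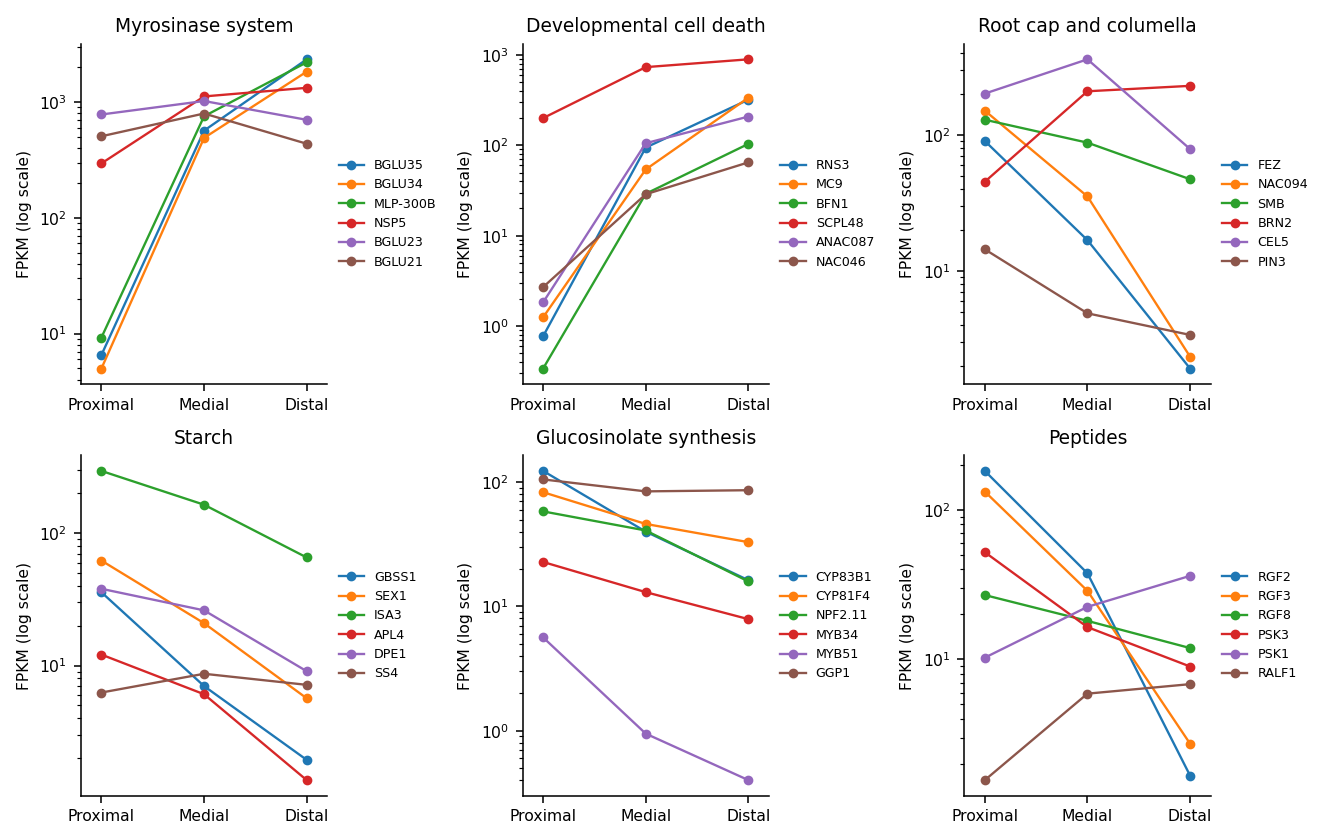
FPKM on a log axis in Proximal, Medial and Distal cells of the PUB25 line for 6 genes in each of 6 groups; each point is the authors' single value for the zone, with no error. BGLU34, BGLU35 and MLP-300B climb from under 10 to over 1000 FPKM while BGLU23 stays between 702 and 1020.3 FPKM, and CEL5 is highest in Medial cells.

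Most genes of developmental cell death rose. Among them 8 of 11 genes compared rose and 0 fell by the authors' deposited table, and the median difference was 1.82. The 72.7% that rose stood against 19.6% of all genes compared, but the list was chosen with earlier results of these data known. The list holds proteases and nucleases that are switched on when root cap and xylem cells die as part of development. MC9, a metacaspase, was at 1.25, 54.1 and 337 FPKM. RNS3, a ribonuclease of the T2 family, was at 0.771, 94.6 and 320.3 FPKM. BFN1, a nuclease that degrades DNA and RNA in dying cells, was at 0.339, 29.1 and 104 FPKM. All 3 were lowest in Proximal and highest in Distal cells, with differences of 7.23, 7.5 and 6.29. The carboxypeptidase gene SCPL48 rose from 200.2 to 896 FPKM, and the xylem cysteine proteases XCP1 and XCP2 rose from 3.67 to 15.5 and from 32.9 to 114 FPKM. CEP2, a cysteine endopeptidase outside the list, was among the 20 largest rises of the rule, from 97.3 through 1073 to 2244 FPKM. The vacuolar protease gene alpha-VPE stood at 0.512 and 22.3 FPKM (q = 0.223, from the authors' deposited table), and MC4 and gamma-VPE, with differences of 0.31 and -0.40, did not pass either.

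NAC factors with roles in root cap cell death ran in both directions. ANAC087 was at 1.83, 106 and 208 FPKM, and NAC046 at 2.70, 28.8 and 64.8 FPKM, and both rose. SMB, which also acts in the death of cap cells, fell from 129 to 47.3 FPKM. NAC010, another member of the family, rose from 1.73 to 21.7 FPKM. Over the whole NAC family the counts were near even, with 14 of 48 members risen and 12 fallen in the authors' deposited table and a median difference of 0.10 that turned to -0.15 with equal sums of FPKM.

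The windows before MC9, BFN1 and RNS3 are shown because these genes, of different families, moved alike. Capitals mark 2 motifs searched on both strands, namely the tracheary-element-regulating element TERE, known from genes of dying xylem cells, and TATAAA. The windows lie at chr5:1153490-1153739 on the plus strand, chr1:3752781-3753030 on the minus strand and chr1:9293863-9294112 on the minus strand (RefSeq, TAIR10.1), and overlap no other annotated gene.
MC9: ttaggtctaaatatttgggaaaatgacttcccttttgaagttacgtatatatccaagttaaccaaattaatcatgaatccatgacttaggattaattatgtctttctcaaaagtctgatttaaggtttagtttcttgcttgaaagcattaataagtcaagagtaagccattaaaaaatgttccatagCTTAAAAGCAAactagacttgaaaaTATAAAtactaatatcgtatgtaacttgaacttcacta
BFN1: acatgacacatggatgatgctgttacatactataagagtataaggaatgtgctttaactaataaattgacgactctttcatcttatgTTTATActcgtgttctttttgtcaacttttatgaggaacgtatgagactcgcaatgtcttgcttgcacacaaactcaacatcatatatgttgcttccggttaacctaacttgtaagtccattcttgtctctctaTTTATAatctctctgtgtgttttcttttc
RNS3: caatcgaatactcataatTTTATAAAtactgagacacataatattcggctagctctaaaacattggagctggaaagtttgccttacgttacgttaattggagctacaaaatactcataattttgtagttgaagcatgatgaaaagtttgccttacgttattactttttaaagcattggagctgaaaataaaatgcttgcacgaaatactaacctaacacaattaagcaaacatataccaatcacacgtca
MC9 held a TERE match beginning at position -63 and TATAAA at -38. BFN1 held TATAAA at -163 and -29, both on the opposite strand and so printed as TTTATA. RNS3 held an overlapping pair, 1 match on each strand, at -232 and -230. A TERE match occurred in 11 of 1469 windows of genes at least 2-fold higher in Distal cells (0.749%), in 0.375% of those at least 2-fold lower and in 0.424% of the windows of all genes compared. Among the 20 leading rises, 19 had a window and MC9 alone held the match. These shares describe letters only.

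Genes of the root cap and of gravity sensing fell, with exceptions. Among them 11 of 15 genes compared fell and 2 rose by the authors' deposited table, at a median difference of -1.20. These were 73.3% and 13.3%, against 17.2% and 19.6% of all genes compared. FEZ, a NAC factor that drives the divisions of root cap stem cells, was at 90.3, 16.9 and 1.93 FPKM. NAC094 was at 151, 35.3 and 2.35 FPKM. SMB, which also promotes root cap maturation, stood at 87.8 FPKM in Medial cells, between its levels in the other zones. BRN2, which acts with SMB in late cap maturation, rose from 45.3 through 209 to 229 FPKM. The cap NAC genes thus ran in both directions, with FEZ, NAC094 and SMB falling and BRN2 rising. CEL5, a cellulase linked to the shedding of cap cells, was at 201, 359 and 78.8 FPKM and so was highest in Medial cells.

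Auxin carriers of the columella fell as well, PIN3 from 14.5 to 3.40 FPKM and PIN7 from 19.2 to 3.66 FPKM. ACR4, a receptor kinase that restrains columella stem cell division, fell from 7.54 to 2.85 FPKM. ARF10 fell by 1.13 on the log2 scale, while ARF16, its partner in cap differentiation, was listed at 103 and 79.3 FPKM and did not pass. The homeodomain gene ATHB23 rose from 0.315 to 8.90 FPKM. Among the defining markers of the cap 5 of 6 fell and 1 rose by the authors' deposited table, and their summed level was 622 FPKM in Proximal, 713 in Medial and 361 in Distal cells.

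Starch and sucrose genes fell broadly. By the authors' deposited table, 20 of 27 members compared fell and 3 rose, with a median difference of -1.02. The shares were 74.1% and 11.1%, against 17.2% and 19.6% of all genes compared. GBSS1, the granule-bound enzyme that makes amylose, was at 35.8, 7.01 and 1.94 FPKM. SEX1, the glucan water dikinase that opens starch to breakdown, was at 62.1, 20.9 and 5.66 FPKM. The debranching enzyme gene ISA3 was at 295, 164 and 65.5 FPKM. In each case Medial cells lay between the other zones. APL4 and the small subunit of ADP-glucose pyrophosphorylase, the entry to starch synthesis, fell by 2.47 and 1.5 (log2). The disproportionating enzyme genes DPE1 and DPE2 fell by 1.95 and 1.39, and PGM1, plastidial phosphoglucomutase, fell by 1.37. Both synthesis and breakdown were thus among the falls. SUS1 and SUS3, sucrose synthases, fell by 2.38 and 1.87. The rises were transporters: SWEET2, a vacuolar sugar carrier, went from 0.248 to 13.4 FPKM, SUC1 from 2.13 to 9.31 FPKM and SUC2 from 0.808 to 1.63 FPKM. Starch synthase SS4 and the plastidial isomerase PGI1 had differences of 0.17 and 0.04 and did not pass.

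Among single-gene rows with a symbol, a peptide hormone gene of the stem cell niche, RGF2, ranked first of the falls. Root meristem growth factors are small sulfated peptides that sustain the PLETHORA gradient of the niche. RGF2 was at 182, 37.6 and 1.67 FPKM and RGF3 at 132, 28.7 and 2.73 FPKM, each highest in Proximal cells. Their transcripts share 61.1% of 648 aligned bases, so they are not near-identical copies. RGF8 fell from 26.9 to 11.9 FPKM and RGF1 from 7.39 to 3.26 FPKM, the latter at q = 0.0497, close to the limit, by the authors' deposited table. RGF4, RGF5 and RGF6 stood between 1.19 and 9.78 FPKM in every zone and did not pass, and the receptors RGI1 to RGI5 were not among the genes compared. TPST, the enzyme that sulfates these peptides, fell from 15.3 to 6.05 FPKM.

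Over the list of signalling peptides and receptors 12 of 32 members compared fell and 4 rose by the authors' deposited table. These were 37.5% and 12.5%, against 17.2% and 19.6% of all genes compared, and the median difference was -0.34. Phytosulfokine genes, whose products promote growth, split: PSK3 fell from 52.0 to 8.96 FPKM and PSK1 rose from 10.3 to 36.2 FPKM. RALF1, a peptide that curbs elongation through the receptor FER, rose from 1.56 to 6.83 FPKM. FER itself rose by 0.38 and the related wall sensor THE1 by 1.49. PLT1, PLT2 and PLT3, the PLETHORA factors, fell by 2.44, 1.68 and 1.13 (log2). The remaining niche markers compared, AGL42 and BBM, had differences of 0.11 and 0.88 and did not pass.

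**Figure D3:**
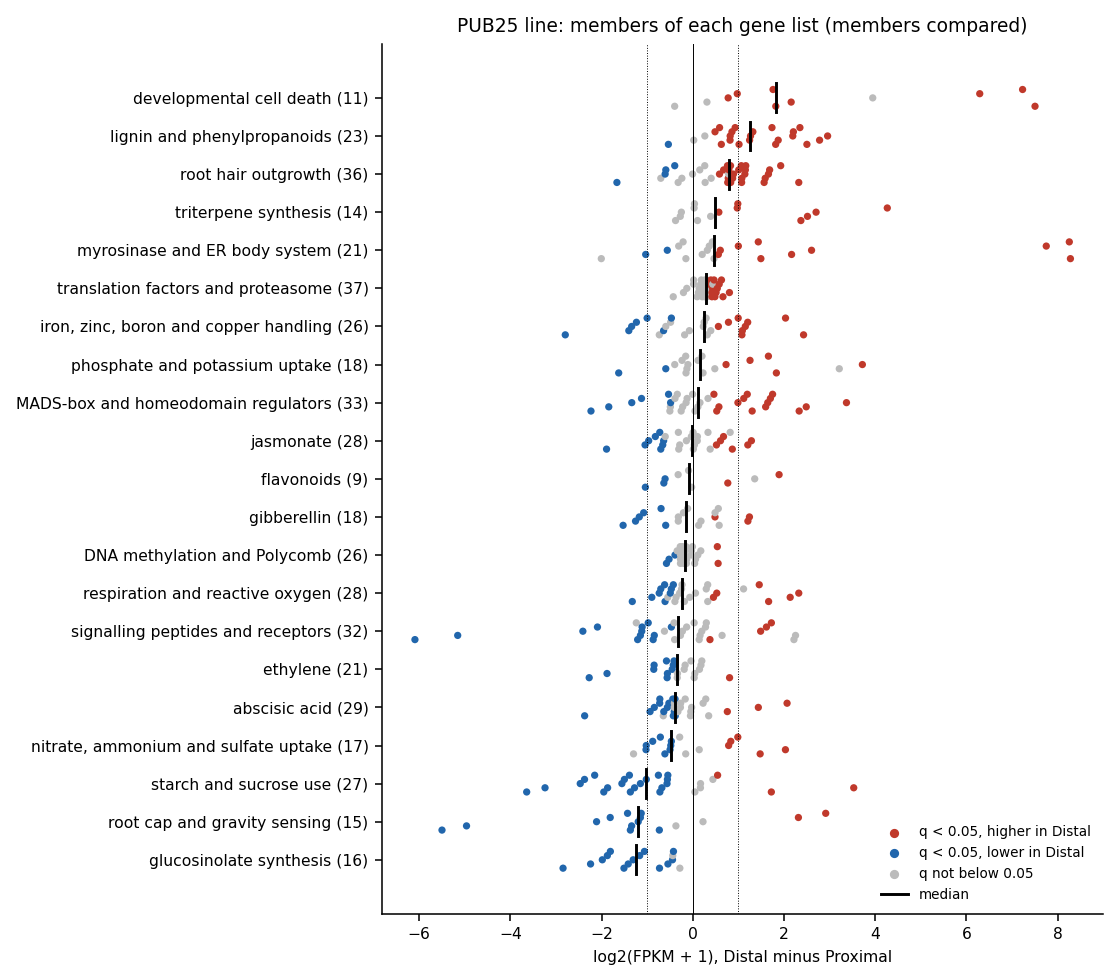
Difference of log2(FPKM + 1), Distal minus Proximal, for the members compared of 21 gene lists in the PUB25 line; each point is 1 gene, bars are list medians, red and blue mark q under 0.05 in the authors' deposited table, and the number of members stands in brackets. Medians run from -1.24 for glucosinolate synthesis to 1.82 for developmental cell death.

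Of the triterpene genes, 7 of 14 compared rose and 0 fell by the authors' deposited table, at a median difference of 0.48. Arabidopsis makes root triterpenes from gene clusters, in which an oxidosqualene cyclase lies beside the enzymes that modify its product. The thalianol cluster lies on chromosome 5. THAS1, its cyclase (19456960 to 19461689), was at 6.25, 46.4 and 46.2 FPKM, and THAH beside it (19444138 to 19447850) at 48.8, 276 and 256 FPKM. THAD, the third gene (19434827 to 19436689), was at 29.3, 59.3 and 44.0 FPKM. All 3 were lowest in Proximal cells, and THAD rose least. Marneral synthase MRN1 (chromosome 5, 17053512 to 17058246) rose from 7.25 to 46.1 FPKM and its partner MRO from 37.97 to 75.5 FPKM, while CYP705A12 of the same cluster was listed at 20.7, 37.1 and 22.3 FPKM and did not pass. LAS1, lanosterol synthase, rose from 0.141 to 20.9 FPKM. CAS1, the cycloartenol synthase of sterol synthesis, was listed at 23.7 and 24.2 FPKM (q = 0.919, from the authors' deposited table).

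Other enzymes of isoprenoids and lipids stood among the largest rises. CPT, a cis-prenyltransferase gene, rose from 0.872 through 139 to 371 FPKM. Its neighbour on chromosome 2, AT2G23400, rose from 0.896 to 325 FPKM, and their transcripts share 91.3% of 1047 aligned bases, so the reads of one may be counted in the other. AT3G06460, of the GNS1/SUR4 family of fatty acid elongases, rose from 2.60 through 369 to 987 FPKM. AT2G37700, of the fatty acid hydroxylase superfamily, rose from 4.61 to 439 FPKM, and AT3G20160, a terpenoid synthase family gene, from 1.07 to 455 FPKM. GPAT8, an acyltransferase of cutin synthesis, rose from 0.494 to 26 FPKM and GPAT4 from 0.671 to 3.81 FPKM, while FAR5, a fatty acyl reductase, fell from 6.19 to 0.241 FPKM. Only 4 of the suberin and cutin genes were compared, of which 2 rose and 1 fell by the authors' deposited table.

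The rest of the 20 leading rises were of mixed function. CSLB01 and CSLB02, neighbouring genes of the cellulose synthase superfamily, rose from 1.12 to 299.7 and from 0.425 to 218 FPKM, with 83.9% identity of their transcripts. MAP18 and PCAP1, proteins that bind microtubules, rose by 5.75 and 5.45. HMT3, a homocysteine methyltransferase, rose from 1.05 to 199.7 FPKM. PLDP2, a phospholipase D of phosphate-starved roots, rose from 0.509 to 40.1 FPKM. The glucosyltransferase gene UGT75B1 rose from 3.46 to 128 FPKM, but its deposited locus is also that of the non-coding gene AT1G05562, and the sources used here do not state that counting used strand, so the 2 cannot be told apart. GulLO5, ATPUP20, MLP34 and EDA36 completed the list, with differences of 5.67, 4.86, 4.61 and 6.98.

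Among the leading falls, ADF9, an actin depolymerizing factor, was at 371, 93.3 and 4.75 FPKM. The plastocyanin-like genes ENODL2 and ENODL16 fell from 152 to 5.69 FPKM and from 104 to 10.6 FPKM. AS2, a LOB-domain factor of leaf polarity, fell from 29.7 to 1.07 FPKM. OEP16-1, a plastid envelope channel, fell by 3.70 and PEX11D, a peroxisome division factor, by 3.27 (log2). The metallothionein gene MT2B was at 433, 149 and 42.4 FPKM. LEA7, of the late embryogenesis abundant proteins, fell from 300.3 to 30.1 FPKM and IQD22, a calmodulin-binding protein, from 117 to 9.18 FPKM. IAA33, an atypical Aux/IAA gene, fell from 58.4 to 4.74 FPKM. AGP5, ATL63, FP6 and XTH28 fell by 3.71, 3.58, 3.24 and 3.18 on the log2 scale.

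Genes that act in the cell wall mostly rose. Wall expansion needs enzymes that loosen pectin and xyloglucan, and class III peroxidases make or use reactive oxygen at the wall. By the authors' deposited table, 25 of 36 class III peroxidases rose and 3 fell, with a median difference of 1.08. AT2G18980 rose from 1.77 to 78.9 FPKM and AT2G39040 from 15.2 to 259.6 FPKM, while AT2G43480 fell from 388 through 119.6 to 36.1 FPKM. Of 35 arabinogalactan proteins, wall glycoproteins, 23 rose and 3 fell by the authors' deposited table, at a median difference of 1.19. AGP12 rose from 42.8 to 403 FPKM, AGP4 from 36.2 to 320.5 FPKM and FLA9 from 7.02 to 102 FPKM. AGP31, at 1906 FPKM in Proximal cells, was highest in Medial cells at 5589 FPKM and at 4441 FPKM in Distal cells.

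Of 85 pectin methylesterases, lyases and polygalacturonases, 49 rose and 10 fell by the authors' deposited table, at a median difference of 0.69. AT2G43880, of the pectin lyase-like superfamily, rose from 12.7 to 338 FPKM and AT3G47400, of the pectin methylesterase family, from 14.6 to 223 FPKM. Of 35 expansins and xyloglucan enzymes, 24 rose and 5 fell by the authors' deposited table, at a median difference of 0.96. EXPB1, a beta-expansin, rose from 7.46 to 113 FPKM and EXLA2 from 4.60 to 50.5 FPKM. XTH28 was the member furthest in the other direction, from 21.3 to 1.45 FPKM. Reads of close family members can be split by the counting, so single members of these families are less certain than the families.

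Most water channel genes rose. Of 24 aquaporins compared 21 rose and 0 fell by the authors' deposited table, and all 24 had a positive difference. The smallest was 0.06, within the shift that equal sums of FPKM brought. The median of the 24 was 1.97, or 1.68 with equal sums of FPKM. TIP2, a tonoplast channel (AT3G26520), was at 18.5, 200.2 and 266 FPKM. The plasma membrane channels PIP1A and PIP1;4 rose by 2.51 and 2.86. NLM1, a NOD26-like channel, rose from 57.5 to 452 FPKM. Of 14 tubulins, 9 rose and 0 fell by the authors' deposited table, at a median difference of 0.64. TUB1, a beta-tubulin, was at 7.99, 70.3 and 144 FPKM and TUB5 at 7.49, 34.2 and 58.4 FPKM. TUA3 and TUA5 share 95.9% of their aligned transcript, so their separate rises of 1.09 and 0.87 are uncertain.

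**Figure D4:**
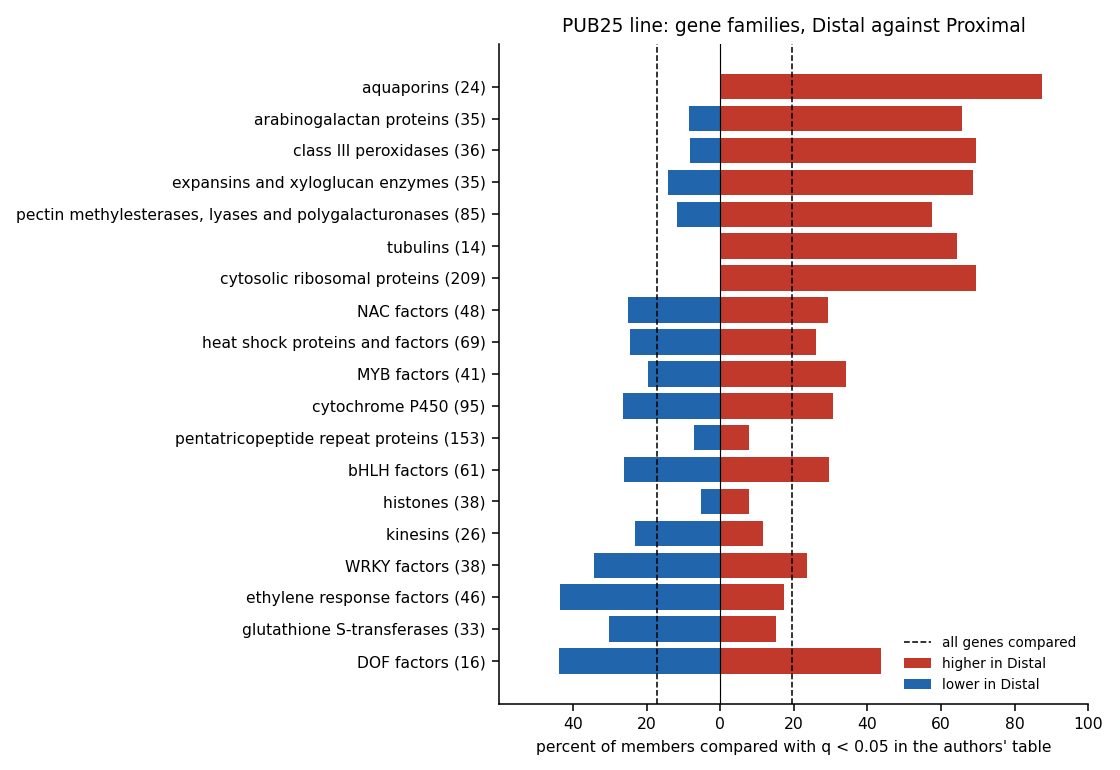
Percent of the members compared of 19 gene families that rose (right, red) or fell (left, blue) in PUB25 between Proximal and Distal cells by a q under 0.05 in the authors' deposited table; the number of members stands in brackets and dashed lines mark the percent over all genes compared. Aquaporins, peroxidases and cytosolic ribosomal proteins reach at least 69.4% upward against 19.6% of all genes, and ethylene response factors 43.5% downward against 17.2%. The 16 DOF transcription factors reach 43.8% in each direction.

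Lignin genes rose with the markers of xylem. Among them 20 of 23 genes compared rose and 1 fell by the authors' deposited table, at a median difference of 1.24. Those shares were 87.0% and 4.35%, against 19.6% and 17.2% of all genes compared. PAL1, the entry enzyme, rose from 2.12 to 16.6 FPKM, and LAC11, a laccase that couples lignin monomers, from 0.656 to 11.8 FPKM. DIR6, a dirigent protein of lignan synthesis, rose from 7.19 to 55.2 FPKM. COMT1 rose by 2.35 and CAD5 by 2.19. FAH1, of the syringyl branch, fell from 1.68 to 0.846 FPKM, and C4H and REF1, with differences of 0.26 and 0.02, did not pass. All 9 xylem markers compared rose in the authors' deposited table, among them the cellulose synthase gene CESA4, at 4.11, 3.78 and 15.3 FPKM. LAC4 was at 4.16, 2.43 and 17.9 FPKM. The summed level of the xylem markers was 56.5, 51.2 and 213 FPKM, so Medial cells lay with Proximal ones there. XCP1 and XCP2 also stand in the cell death list, and LAC4 and LAC17 in the lignin list. The part of xylem cells in the lignin rise was not tested.

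Most root hair genes rose, and the markers of hair-forming cells did so at low levels. By the authors' deposited table, 23 of 36 members compared rose and 4 fell, with a median difference of 0.79. These were 63.9% and 11.1%, against 19.6% and 17.2% of all genes compared. All 6 markers of hair-forming cells rose by the same table, their summed level going from 13.6 to 41.5 FPKM. RHD2, the NADPH oxidase of the hair tip, rose from 0.915 to 8.58 FPKM and COBL9 from 1.65 to 7.51 FPKM. RHD6 and RSL4, which start hair outgrowth, rose from 1.11 to 3.23 and from 1.02 to 3.24 FPKM. GL2 and EGL3, of the network that sets hair and non-hair fate, rose by 1.93 and 1.66, and the mobile repressor CPC rose from 57.4 to 106 FPKM. WER, a MYB factor of non-hair cells, fell from 65.6 to 43.1 FPKM. RHS13 fell from 31.8 to 9.33 FPKM. CSLD3, needed for the hair wall, was listed at 68.2 and 57.5 FPKM and did not pass.

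Markers of the inner tissues were mixed. Of the stele and pericycle markers 3 of 4 rose and 1 fell by the authors' deposited table. SHR, which moves from the stele to specify endodermis, was at 2.58, 8.12 and 21.5 FPKM, and the cytokinin receptor WOL at 22.1, 39.96 and 52.0 FPKM. ARF5, the auxin response factor of early vasculature, fell from 50.5 to 30.7 FPKM. Of 6 cortex and endodermis markers CASP1 and CASP2 rose, to 8.02 and 3.97 FPKM. Among 4 phloem markers 3 rose by the authors' deposited table, all of them under 6 FPKM in Distal cells. How much of any gene's difference follows from such shifts in tissue makeup was not tested.

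Of 21 ethylene genes, 10 fell and 1 rose by the authors' deposited table, at a median difference of -0.34. Those shares were 47.6% and 4.76%, against 17.2% and 19.6% of all genes compared. ACO1, an ACC oxidase of the last step of ethylene synthesis, fell from 32.4 to 8.07 FPKM. The receptors ETR2 and ERS2 fell by 0.85 and 0.86, and EIN2 and CTR1, with differences of -0.19 and 0.18, did not pass. Of 46 ethylene response factors 20 fell and 8 rose by the authors' deposited table (43.5% and 17.4%). ERF2 was at 197, 97.9 and 45.1 FPKM, and DREB1A, a cold-response factor, fell from 71.3 to 20.7 FPKM. Of 29 abscisic acid genes, 13 fell and 3 rose by the authors' deposited table (44.8% and 10.3%), at a median difference of -0.39. NCED2, of abscisic acid synthesis, fell from 5.32 to 0.220 FPKM, and CYP707A1, which breaks the hormone down, rose from 9.47 to 42.8 FPKM.

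Jasmonate genes had a median difference of -0.01, with 8 of 28 members fallen and 6 risen in the authors' deposited table. Those shares were 28.6% and 21.4%, against 17.2% and 19.6% of all genes compared. Enzymes of synthesis split: AOC3 fell by 1.05 and OPR3 by 0.97 on the log2 scale, while LOX4 and AOC2 rose by 0.87 and 1.2. The lipoxygenase gene LOX1, also on the list, fell by 1.89. The repressor gene JAZ1 was listed at 807, 1385 and 1051 FPKM and MYC2, the factor it binds, at 546, 566 and 439.9 FPKM, and neither passed. Of 18 gibberellin genes, 6 fell and 3 rose in the authors' deposited table (33.3% and 16.7%, against the same shares of all genes). The receptors GID1A and GID1C fell by 1.08 and 1.18, and the DELLA repressors RGL1 and RGL2 by 1.53 and 1.26. GASA4, a gibberellin-responsive peptide gene, was among the most abundant transcripts, at 4263, 4986 and 6359.6 FPKM (q = 0.147, from the authors' deposited table).

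The 10 most abundant named genes of Proximal cells held stress-response genes beside others. AGP1, an arabinogalactan protein gene, and emb2386, a ribosomal protein gene, were at 2028 and 1023.5 FPKM there, with differences of -0.18 and 0.49, and neither passed. The dehydrins ERD10 and COR47, neighbours on chromosome 1, were at 1239 and 1137 FPKM there and fell to 429 and 305 FPKM. DIP2 fell from 985 to 176 FPKM. DREB2A, a drought-response factor, was listed at 2294, 3069 and 2359 FPKM and the glutathione transferase gene GSTU19 at 1806, 2266 and 1455 FPKM, and neither passed. GSTF9, a glutathione transferase, fell from 667 through 218 to 104 FPKM, and GSTU22 rose from 250.5 to 709.9 FPKM.

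Genes of nutrient uptake rose and fell within each list. Genes of nitrate, ammonium and sulfate uptake and assimilation fell in 8 of 17 members and rose in 5 by the authors' deposited table. These were 47.1% and 29.4%, against 17.2% and 19.6% of all genes compared, and the median difference was -0.47. NRT1.1, the nitrate carrier and sensor, was at 34.2, 43.8 and 18.1 FPKM, and APR2, of sulfate reduction, at 185, 189.9 and 90.3 FPKM. AMT1;1, an ammonium carrier, rose from 31.8 to 90.3 FPKM and the anion channel gene SLAH3 from 3.67 to 18.1 FPKM. Of 18 phosphate and potassium genes, 5 rose and 2 fell in the authors' deposited table, and their median of 0.16 turned to -0.08 with equal sums of FPKM. The shares were 27.8% and 11.1%, against 19.6% and 17.2% of all genes compared. SQD2, which makes sulfolipid in place of phospholipid, rose from 5.24 through 25.98 to 81.1 FPKM, and the phosphate carrier PHT1;4 from 5.26 to 18.7 FPKM. PHO2, which restrains phosphate uptake, fell from 7.36 to 1.71 FPKM.

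Of 26 metal and boron genes, 9 rose and 7 fell by the authors' deposited table, with a median of 0.24 that turned to -0.01 with equal sums of FPKM. The shares were 34.6% and 26.9%, against 19.6% and 17.2% of all genes compared. FRO2, the root ferric reductase, rose from 44.6 to 100.1 FPKM and FIT1, its regulator, from 10.4 to 21.7 FPKM. IRT1, the main iron carrier, was not among the genes compared. The vacuolar iron exporters NRAMP3 and NRAMP4 fell by 1.24 and 1.34. Boron exporters split, BOR4 falling from 22.0 to 2.31 FPKM, BOR1 from 14.4 to 4.81 FPKM and BOR2 rising from 24.3 to 57.2 FPKM.

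Cytosolic ribosomal protein genes rose by little and in large number. Among them 145 of 209 genes compared rose and 0 fell by the authors' deposited table, while 5 passed 2-fold. Their median difference was 0.55, or 0.24 with equal sums of FPKM. RPL18, among the 10 most abundant genes of Distal cells, was at 935, 1002 and 1513 FPKM. AT5G59240 had the largest difference, from 8.38 to 34.3 FPKM. Summed over the family the level was 50399 FPKM in Proximal, 52124 in Medial and 74313 in Distal cells. Of 37 translation factor and proteasome genes, 13 rose and 0 fell in the authors' deposited table, but their median of 0.28 turned to -0.02 with equal sums of FPKM. EIF4A1, an RNA helicase of translation initiation, rose from 211 to 306 FPKM.

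Plant ribosomal protein genes are known for site II (GGCCCA) and telo-box (AAACCCTA) motifs near their starts. On either strand of the 250-base windows, site II occurred in 110 of 209 of these genes (52.6%), against 17.7% of the windows of all genes compared, and the telo-box in 39 (18.7%), against 3.75%. Among genes at least 2-fold higher in Distal cells site II occurred in 5.79% and among those at least 2-fold lower in 9.66%. The G-box (CACGTG), which bHLH and bZIP factors are known to bind, occurred in 119 of 1066 windows of genes at least 2-fold lower (11.2%), in 5.79% of those at least 2-fold higher and in 7.66% of all genes compared. The window of RPL18 (chr3:1621105-1621354, plus strand, RefSeq, TAIR10.1) is shown as an example, with TATAAA and the GGCCCA match in capitals, the latter on the opposite strand and beginning at position -43.
RPL18: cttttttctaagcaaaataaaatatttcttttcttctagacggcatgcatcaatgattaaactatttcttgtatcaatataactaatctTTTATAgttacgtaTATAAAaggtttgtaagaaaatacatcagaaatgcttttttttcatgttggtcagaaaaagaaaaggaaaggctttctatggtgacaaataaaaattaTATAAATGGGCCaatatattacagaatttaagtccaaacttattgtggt
The last TATAAA match there runs directly into the site II match.

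Most large differences were partly reached in Medial cells. The steps from Proximal to Medial and from Medial to Distal share zones with the comparison itself, so their values are given side by side only. Of the 1571 genes at least 2-fold higher in Distal cells, 1238 (78.8%) had a Medial level between both, and 282 (18.0%) were highest in Medial cells. The median gene of the 1571 had covered 68.8% of its log2 difference in Medial cells. Of the 1159 genes at least 2-fold lower, 1053 (90.9%) lay between, with a median of 50.4%. BGLU35 differed by 6.24 between Medial and Proximal and by 2.04 between Distal and Medial cells. RGF2 differed by -2.24 and -3.85 in the same steps. THAS1 had its whole difference in the first step, with 2.71 and -0.01, and CESA4 in the second, with -0.10 and 1.77.

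The same zones of the SPT line, sorted in the same way from Col-0 root meristems with 3 libraries per zone of its own, gave the same direction for most large rises and for fewer of the falls. Levels were not compared between lines, and the difference between the lines was not tested. Across the 15908 genes at the minimum level in both lines, 60.3% had the same sign, and the differences correlated with a Pearson r of 0.47 and a Spearman rho of 0.31 across genes, which are not independent replicates. In the authors' deposited table of the SPT line 24.2% of these genes rose and 24.8% fell. Of 3145 genes that rose in the PUB25 line, 1793 rose in SPT too in the authors' deposited tables (57.0% of the PUB25 rises and 46.5% of the SPT rises), and 638 fell. Of 2780 that fell in the PUB25 line, 904 fell in SPT in the authors' deposited tables (32.5% and 22.9%), 394 rose and 1482 did neither.

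Genes at least 2-fold higher in the PUB25 line had a median difference of 2.36 in SPT, with 92.1% of the same sign, and those at least 2-fold lower one of -0.50, with 65.2%. Of the 20 leading rises all 20 had the same sign in SPT and 14 also q under 0.05 by the authors' deposited table, and of the 20 leading falls 19 and 16. MC9 had differences of 7.23 in PUB25 and 7.27 in SPT, and RGF2 of -6.10 and -5.39. Aquaporins had medians of 1.97 and 2.63, peroxidases of 1.08 and 2.87, and glucosinolate synthesis of -1.24 and -0.82. Other lists did not keep their direction. Root cap and gravity sensing had medians of -1.2 and 0.02, ethylene of -0.34 and 0.49, and abscisic acid of -0.39 and 0.85. Nitrate, ammonium and sulfate uptake had -0.47 and 1.66. PIN3, PIN7 and SMB, which fell in PUB25, had 0.02, 0.17 and 0.15 in SPT and did not pass there by the authors' deposited table. FEZ had -4.96 and -4.24.

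**Figure D5:**
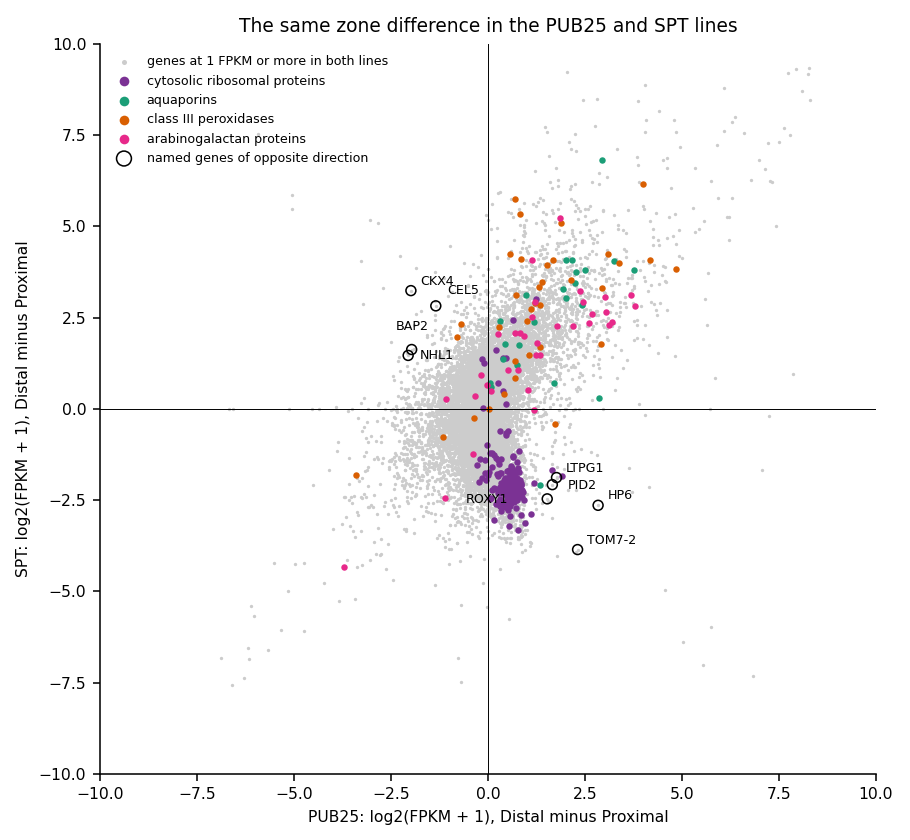
Difference of log2(FPKM + 1), Distal minus Proximal, in the SPT line against that in the PUB25 line for genes at 1 FPKM or more in both; each point is 1 gene, 4 families are coloured, and circles mark 9 named genes of opposite direction. Cytosolic ribosomal proteins (purple) lie at a median of 0.55 in PUB25 and -2.09 in SPT, and aquaporins (green) lie to the right of 0 in PUB25.

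Cytosolic ribosomal proteins ran in opposite directions in the lines, with 182 of 209 fallen in the authors' deposited table of the SPT line and a median of -2.09 there. CKX4, a cytokinin oxidase, went from 16.2 to 3.34 FPKM in PUB25 but from 0.863 to 16.6 FPKM in SPT. HP6, a pseudo-phosphotransfer protein that inhibits cytokinin signalling, went from 1.23 to 15.0 FPKM and from 11.5 to 0.998 FPKM. In both lines CKX4 and HP6 had q under 0.05 by the authors' deposited tables. Among the genes that met the naming criteria in both lines, 1546 in all, 224 were higher in Distal cells of PUB25 and lower in those of SPT, and 191 the reverse.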

How the data were processed

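RNA of sorted root meristem protoplasts was sequenced after extraction with a QIAGEN RNeasy micro kit and library preparation with a NuGEN Ovation ultralow kit, per the labels' protocols. For every gene and zone the authors deposited 1 FPKM value that pools the libraries, and the submitters' processing notes name Bowtie, TopHat, Cufflinks, Cuffdiff and the TAIR10 build, with no versions. The q-value of each zone pair is the authors' own, deposited in the same table. Depth per library is unknown, so no counting interval is given, and library sizes behind the FPKM values cannot be compared. Whether the 3 libraries of a zone came from separate plants is not stated, so the authors' q-values may measure technical spread only.

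Differences of log2(FPKM + 1) were computed from the deposited FPKM values for rows whose mean over the 3 PUB25 zones reached 1 FPKM. A limma fit over single libraries had been planned. It could not be run on 1 value per zone, so size (2-fold) and the deposited q-values were used in its place. The members and gene lists were chosen with earlier results of these data known. Families were taken from gene names and descriptions. Named genes were the 20 each way with the largest difference among single-gene rows with a symbol, above 0 FPKM in both zones, at least 5 FPKM in the higher zone and a q-value under 0.05. The 10 genes of highest FPKM in each zone, up to 6 members per list or family, PUB25, the markers and the 5 genes each way with opposite directions in the PUB25 and SPT lines were added; 1 of these is not reported here. Other list members named were chosen after their values were seen. Rows that join several genes (805 of those compared) were kept, and the 271 rows of the organelle genomes, all listed at 0 FPKM, were below the minimum. The row AT2G01021, at 748430, 1167000 and 1000700 FPKM, was left out of sums.

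Windows of 250 bases before each RefSeq gene start (TAIR10.1) were searched on both strands. Of 27219 deposited single loci with a RefSeq gene of the same tag, 27218 overlapped it. Copies were aligned pairwise. Alternatives were a pseudocount of 0.1 FPKM, no minimum, a minimum of 5 FPKM, quantile normalization, median centring, omitting joined rows and a 3-fold limit. Added after seeing the data were genes above 0 FPKM in both zones and equal sums of FPKM. The code was tested on simulated data. Python 3.11.15, pandas 2.3.3, NumPy 2.4.6, Biopython 1.88 and matplotlib 3.10.9 were used.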

Additional observations from a re-analysis of the deposited data

Results flagged for a closer look

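The results below had opposite directions in the PUB25 and SPT lines by the difference of log2(FPKM + 1), Distal minus Proximal. The difference between the lines was not tested for any of them, since each zone has 1 pooled value. Each gene passed a q value of 0.05 in both of the authors' deposited tables.

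Among genes higher in Distal cells of PUB25, HP6 had a difference of 2.84 in PUB25 and -2.64 in SPT. TOM7-2, a subunit of the mitochondrial import pore, had 2.31 and -3.86. LTPG1, a lipid transfer protein anchored at the cell surface, had 1.77 and -1.88. PID2, a protein kinase of the AGC family, had 1.66 and -2.08. ROXY1, a glutaredoxin known from petal development, had 1.53 and -2.47.

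Among genes lower in Distal cells of PUB25, CEL5 had -1.34 in PUB25 and 2.82 in SPT, and CKX4 had -1.98 and 3.24. BAP2, a BON association protein that restrains cell death, had -1.96 and 1.63. NHL1, of the NDR1/HIN1-like family, had -2.05 and 1.46.

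As groups, the 4 stele and pericycle markers had a median difference of 1.58 in PUB25 and -0.98 in SPT, and the 209 cytosolic ribosomal protein genes one of 0.55 and -2.09.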

How the results depend on the processing

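Of 660 named genes compared, the 440 called in the authors' deposited table kept their sign under every alternative that included them. Settings that only drop rows, and the pseudocount, cannot change a sign, so only quantile normalization, median centring and equal sums could have. Of the 220 not called, 64 changed sign with equal sums of FPKM, 24 with quantile normalization and 3 with median centring. Counting a gene as moved where its difference shifted by more than 1.5-fold, a pseudocount of 0.1 FPKM moved 79, quantile normalization 9, and no minimum, median centring, equal sums of FPKM and leaving out joined rows 0. With a minimum of 5 FPKM 496 remained and 0 moved. Of 100 list counts 15, 5, 3, 0, 17 and 0 moved under the same settings in that order, and 33 with the minimum of 5 FPKM. For named genes, settings that only drop rows leave a difference as it was, so 0 moved by construction. Median centring and equal sums shift differences 1 way by less than the 1.5-fold limit, so their 0 was fixed too. The 0 of equal sums does not mean unchanged values, since 64 genes not called changed sign. Genes at least 2-fold higher and lower numbered 1883 and 1534 with the pseudocount of 0.1 FPKM, 1592 and 1138 with median centring, 980 and 831 with the minimum of 5 FPKM, and 1211 and 1862 with equal sums of FPKM. A 3-fold limit left 850 and 471 by its own construction. Equal sums and the limit to genes above 0 FPKM in both zones were chosen after seeing the data. For the other changes the cause was not tested.

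No paired analysis was possible because the deposited values pool the libraries of a zone. Fits without each replicate in turn were not run, since no value per library is given. FPKM values give no depth.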

Other observations

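MADS-box and homeodomain genes were mixed. By the authors' deposited table, 14 of 33 MADS-box and homeodomain genes compared rose and 6 fell. Those shares were 42.4% and 18.2%, against 19.6% and 17.2% of all genes compared. The median difference of 0.11 turned to -0.11 with equal sums of FPKM. HB20 rose from 0.252 through 4.09 to 11.9 FPKM in Proximal, Medial and Distal cells. CNA and PHB, class III factors that pattern the vasculature, rose from 1.64 to 13.8 and from 13.7 to 32.6 FPKM. HAT3 and HAT14 rose by 1.64 and 1.60. Among the other HD-ZIP genes, HB7, HB12, HB13, HB16, HB40, HAT1 and HAT2 rose too by the authors' deposited table. HAT4 fell from 67.9 to 30.6 FPKM and HB6 from 68.99 to 48.9 FPKM. PHV, REV, HAT22 and HB5 did not pass, with differences of -0.01, -0.49, -0.13 and -0.39. AGL21, a MADS factor of lateral root growth, fell from 112 to 30.3 FPKM, and WOX11, which starts adventitious roots, from 11.8 to 1.71 FPKM.

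Genes of DNA methylation and Polycomb differed little in the deposited values, with 2 of 26 risen and 3 fallen in the authors' deposited table. The shares were 7.69% and 11.5%, against 19.6% and 17.2% of all genes compared. Their median difference was -0.18, or -0.44 with equal sums of FPKM. CMT3, a DNA methyltransferase, rose from 15.5 to 23.2 FPKM and VIM3 from 11.1 to 16.5 FPKM. The Polycomb genes SWN and LHP1 fell by 0.58 and 0.52 on the log2 scale. Among respiration and reactive oxygen genes 6 of 28 rose and 9 fell in the authors' deposited table (21.4% and 32.1%, against 19.6% and 17.2% of all genes compared). HB1, the hypoxia-induced haemoglobin, was at 23.6, 143 and 107 FPKM, and the catalase gene CAT2 at 101, 87 and 61.5 FPKM.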
